A study of Homo sapiens with 6 samples.

Results

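The type VI collagen chains were the 5 genes COL6A1, COL6A2, COL6A3, COL6A5 and COL6A6, taken by gene symbol from the 23754 features of an RNA-seq table of human lung fibroblasts. All 5 have a row in the table. The cells were IMR-90, a line of human fetal lung fibroblasts, in which the zinc finger gene ZNF469 was depleted to ask which pathways depend on it. Poly(A)-selected RNA was sequenced as 150 bp read pairs in 3 libraries of each of 2 groups, and the gene-level read counts and FPKM values (fragments per kilobase of gene, scaled to library depth) were deposited.

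By the study's methods, the cells sequenced in both groups carried a Tet-pLKO-puro lentiviral vector with a doxycycline-inducible hairpin against ZNF469 (sh-2) and were selected and kept in 0.5 µg/mL puromycin. DOX+ cells, labelled Sh-ZNF469, received 2 µg/mL doxycycline for 4 days. DOX– cells, labelled Control, received none. The genotype label of the DOX– samples reads wild-type, whereas the methods describe the same line without induction. The experiment used 1 hairpin line, and with no library that had doxycycline but no hairpin, the effects of drug and hairpin cannot be told apart in these libraries. The paper reports separate control experiments in which neither transduction nor doxycycline alone changed collagen production. It also reports RT-qPCR of representative matrix genes with this and another hairpin. The submitters' design text calls the libraries technical replicates, so the p-values measure only the spread between these libraries.

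Type VI collagen forms the beaded microfilaments that surround fibroblasts, muscle fibres and other mesenchymal cells, and links the cell surface and basement membrane to the interstitial matrix. Unlike the fibrillar collagens, its chains have a short triple helix between large arrays of von Willebrand factor A domains. The chains encoded by COL6A1, COL6A2 and COL6A3 fold into a heterotrimer inside the cell, which is joined by disulphide bonds into dimers and tetramers before secretion. The COL6A5 and COL6A6 chains resemble the COL6A3 chain and are thought to take its place in some tissues. Mutations of COL6A1, COL6A2 or COL6A3 cause the Ullrich and Bethlem muscle disorders, and in lung the protein is laid down by fibroblasts of the interstitium.

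On GRCh38 with the GENCODE 44 annotation, COL6A1 (ENSG00000142156) lies on the plus strand of chromosome 21 from 45981770 to 46005050, and COL6A2 (ENSG00000142173) follows it on the same strand from 46098112 to 46132848, after a gap of 93.1 kb. COL6A3 (ENSG00000163359) lies on the minus strand of chromosome 2 from 237324003 to 237414328. COL6A5 (ENSG00000172752) and COL6A6 (ENSG00000206384) are neighbours on the plus strand of chromosome 3, from 130345516 to 130484846 and from 130517177 to 130677044, with 32.3 kb between them. No other gene annotated there overlaps a member. The canonical transcripts differ in size and base composition. That of COL6A3 is 10532 bases long with 44 exons and 53.1% GC, that of COL6A1 4203 bases with 35 exons and 63.5% GC, and that of COL6A2 3445 bases with 28 exons and 66.4% GC. The transcripts of COL6A5 and COL6A6 have 44.2% and 46.5% GC.

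The promoter table from RefSeq (GRCh38.p14) holds 3 of the 5 members, and the 250 bases before the start site are printed for COL6A2 and COL6A3 to show how unlike the start regions of chains of the same trimer are. The COL6A2 sequence is chr21:46097862-46098111 on the plus strand and the COL6A3 sequence is chr2:237414165-237414414 on the minus strand, both written 5′ to 3′. Capitals mark matches to the searched motifs on either strand. The GENCODE model of COL6A3 starts farther upstream, so that 164 of its 250 bases lie inside that gene model.
COL6A2: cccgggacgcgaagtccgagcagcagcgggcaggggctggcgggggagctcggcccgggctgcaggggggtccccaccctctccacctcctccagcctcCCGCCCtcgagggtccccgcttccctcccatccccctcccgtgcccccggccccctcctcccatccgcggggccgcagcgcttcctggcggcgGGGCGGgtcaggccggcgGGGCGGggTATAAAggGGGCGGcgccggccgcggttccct
COL6A3: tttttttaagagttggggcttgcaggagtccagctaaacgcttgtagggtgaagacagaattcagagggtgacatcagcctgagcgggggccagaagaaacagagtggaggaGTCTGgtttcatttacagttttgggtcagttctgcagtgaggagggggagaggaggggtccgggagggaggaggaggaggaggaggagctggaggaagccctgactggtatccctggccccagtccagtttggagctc

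The motifs were searched on both strands of the 300-base window that runs from 250 bases before to 50 after the start, and no match overlapped another. COL6A2 holds 4 GC boxes (GGGCGG), where 45% of 35114 promoters hold at least 1, and 1 TATA box (TATAAA), where 11.5% hold at least 1. Its TATA box begins 32 bases before the start, between the GC boxes that begin 40 and 24 bases before it. COL6A3 holds neither, and has 1 match to the SMAD element (CAGAC, read as GTCTG on the printed strand), which 45.3% of promoters hold. COL6A6, whose window is not printed, holds 2 GC boxes and 1 TATA box on the minus strand. The CCAAT box (in 34.6% of promoters) and the AP-1 site (TGANTCA, in 7.71%) matched in none of the 3 windows. GC content was 79.3% in the COL6A2 window, 56.3% in that of COL6A3 and 67% in that of COL6A6, beside a median of 58.7% over all promoters.

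Libraries held 34057675 to 36120260 counts. Counts were scaled by the TMM method (factors from 0.988 to 1.01) to CPM, counts scaled to a common library total, and the groups were compared in edgeR by its quasi-likelihood test. The p-values were adjusted by the Benjamini-Hochberg method over the 13991 features that had enough counts. ZNF469, the hairpin's target, was at 118, 112 and 126 CPM in DOX– replicates 1 to 3 and at 80.4, 80.4 and 79.6 CPM in DOX+ replicates 1 to 3, which on the log2 scale was a change of −0.57 (edgeR adjusted p = 3.31e-05, standard error 0.0477). DOX+ replicate 2 stood apart on the first principal component (23.9% of the variance), scoring 32.8 where the other 5 libraries scored −12.6 to 0.524, so values without it are given as well. All 10 fibroblast markers exceeded 1 CPM, whereas PECAM1 and CDH5 of endothelium and 4 of 7 epithelial and 3 of 6 immune markers were at 0 in every library. The epithelial markers summed to 0.201 to 0.654 CPM in DOX– and 0.561 to 0.773 CPM in DOX+. The summed fibroblast markers, which include COL1A1, COL1A2, COL3A1 and DCN, ranged from 36849 to 37972 CPM in DOX– and from 27479 to 28374 CPM in DOX+, and their part in the results was not tested. The only genes above 1 CPM were TEK among 5 endothelial markers, which summed to 19.6 to 23.7 CPM in DOX– and 19.9 to 23.1 CPM in DOX+, and CD68 among the immune markers, which summed to 60.7 to 67.0 and 59.1 to 65.4 CPM. The 5 smooth muscle markers summed to 904 to 929 CPM in DOX– and 901 to 972 CPM in DOX+.

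COL6A1, COL6A2 and COL6A3 were among the most abundant transcripts of these cells, and COL6A5 and COL6A6 were at or near 0. In DOX+ libraries COL6A1 fell by 13.5% and COL6A3 by 7.83%. COL6A2 was 6.12% lower and did not pass the test. Thus 2 of the 3 chains tested passed an edgeR adjusted p under 0.05, both lower, beside 0.715% of all tested features called lower, 0.4% called higher and 1.12% called in either direction. None of the 3 passed when an absolute log2 fold change over 1, the study's size criterion, was also required, beside 0.0429% of features. With the same thresholds, and a test that its methods do not name, the study reported far more genes. It also named COL6A1 among the collagen genes with reduced expression. In bulk RNA, fewer cells making a transcript and less transcript per cell cannot be told apart.

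COL6A1, which encodes the α1(VI) chain of every type VI trimer, had 82149, 85769 and 89494 counts in DOX– replicates 1 to 3, or 2426, 2438 and 2566 CPM. In DOX+ replicates 1 to 3 it had 77703, 73300 and 78906 counts, or 2178, 2068 and 2179 CPM. The groups did not overlap, and the lowest library was DOX+ replicate 2. The means were 2477 ± 77.6 CPM (SD, n = 3) in DOX– and 2142 ± 64.0 CPM (SD, n = 3) in DOX+. The log2 fold change was −0.21 (standard error 0.0278, 95% interval −0.27 to −0.15, edgeR adjusted p = 0.00214), and its p-value ranked 29 of all features tested. COL6A1 kept its call when any library was left out (edgeR adjusted p of 0.0155 or lower), and without DOX+ replicate 2 its log2 fold change was −0.18. With a per-library trend on GC content removed, the log2 fold change was −0.13 (edgeR adjusted p = 1.7e-04). In deposited FPKM the groups did not overlap either, at 519, 520.1 and 538 in DOX– and 470.3, 455 and 473 in DOX+, but limma on log2(FPKM + 0.1) gave −0.17 with an adjusted p of 0.107.

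COL6A2, which encodes the α2(VI) chain, had 78257, 79137 and 84517 counts in DOX– replicates 1 to 3, or 2311, 2249.8 and 2423 CPM. The DOX+ libraries had 78621, 74857 and 81142 counts, or 2204, 2112 and 2240.5 CPM. On the CPM scale the groups were separated by the narrow step between 2249.8 and 2240.5, while as a percentage of all counts, without TMM scaling, they overlapped (0.230%, 0.224% and 0.239% against 0.222%, 0.214% and 0.225%). They also overlapped in FPKM, where DOX– libraries ranged from 596.1 to 631 and DOX+ libraries from 578 to 605. The log2 fold change was −0.09 (standard error 0.0297, 95% interval −0.16 to −0.03), with an unadjusted p of 0.00897 and an edgeR adjusted p of 0.171. It was −0.07 without DOX+ replicate 2 and −0.00062 with the GC trend removed (edgeR adjusted p = 0.991). COL6A2 was called only with the replicate number as a block (−0.09, edgeR adjusted p = 0.0219). 

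COL6A3, which encodes the long α3(VI) chain whose C-terminal end gives rise to the fragment endotrophin, had 127029, 129913 and 133147 counts in DOX– replicates 1 to 3, or 3751, 3693 and 3817 CPM. In the DOX+ libraries the counts were 124348, 120794 and 126264, or 3486, 3407 and 3486 CPM. The groups did not overlap, and the spread between libraries was the smallest of the 3 chains, with a coefficient of variation of 1.66% in DOX– and 1.31% in DOX+. The log2 fold change was −0.12 (standard error 0.0196, 95% interval −0.16 to −0.08, edgeR adjusted p = 0.00901), and its p-value ranked 72. Leaving out DOX– replicate 1 (edgeR adjusted p = 0.0855) or 3 (0.053) or DOX+ replicate 1 (0.0502) ended the call, and it was kept without DOX+ replicate 2 (−0.11, edgeR adjusted p = 0.0153). On log2(FPKM + 0.1) the change was −0.09 with a limma adjusted p of 0.267.

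**Figure D1:**
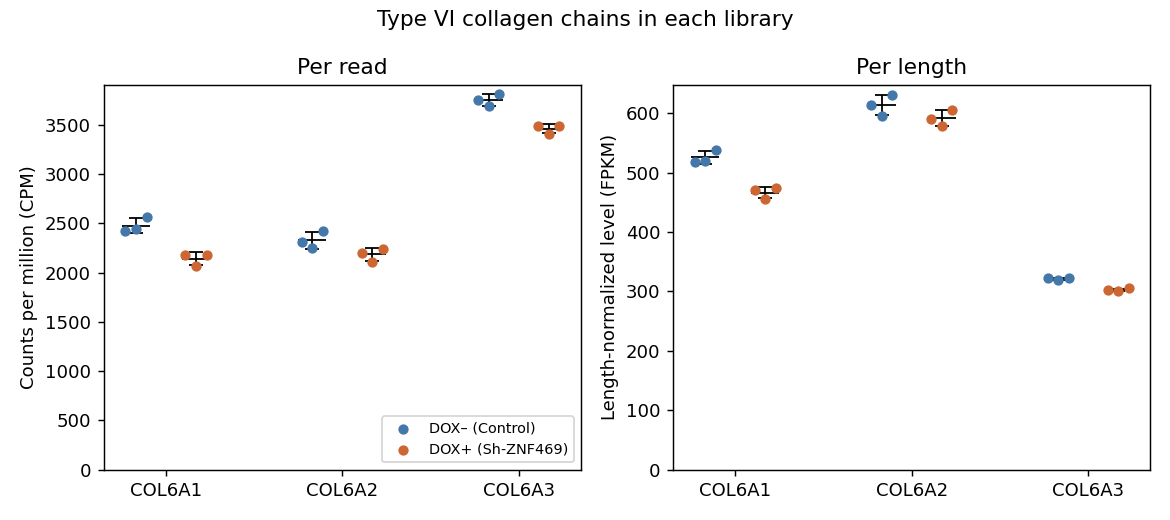
Level in CPM (left) and in FPKM (right) of COL6A1, COL6A2 and COL6A3 in each library (points), with the group mean and SD. In CPM the 3 DOX+ points lie below the 3 DOX– points for each chain, with the narrowest gap for COL6A2 (2249.8 against 2240.5 CPM). In FPKM the COL6A2 points of the groups overlap.

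For each of the 3 chains every DOX+ library was below every DOX– library in CPM, as for 10.6% of all features tested, while 9.73% had every DOX+ library above every DOX– library. The exact two-sided permutation test over libraries gave p = 0.1 for each, the smallest value that 3 libraries against 3 allow. Sampling of reads contributed little to the spread, since the coefficient of variation from counting alone was 0.274% to 0.369%, while that between libraries of a group was 1.31% to 3.78%. The 3 chains together took 0.844%, 0.835% and 0.870% of all counts in DOX– replicates 1 to 3 and 0.791%, 0.768% and 0.793% in DOX+ replicates 1 to 3. Their sum was 8558 ± 221 CPM (SD, n = 3) in DOX– and 7787 ± 174 CPM (SD, n = 3) in DOX+, a log2 difference of −0.14 (exact permutation p = 0.1).

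COL6A5 had 0 counts in all 6 libraries. COL6A6 had 2 counts in DOX– replicate 2 and 0 in the other 5. A library with 0 counts allows up to 3 counts, or 0.0828 to 0.0886 CPM at these depths, which is at most 0.00248% of the COL6A3 count. These limits cover counting error only. No fold change is given for either gene, since both groups were at or under the limit, and neither entered the test. The pseudogene copies of COL6A4 were not analysed here.

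Levels of different genes were compared per length, in FPKM. In DOX– cells COL6A2 was at 614 ± 17.3, COL6A1 at 526 ± 10.8 and COL6A3 at 321 ± 1.55 FPKM (SD, n = 3 each), and in DOX+ cells they were at 591 ± 13.4, 466 ± 9.79 and 302 ± 2.38 FPKM (SD, n = 3 each). The order was COL6A2, COL6A1, COL6A3 in both groups, and within each group the ranges of neighbours in that order did not overlap. By CPM, which is not corrected for length, the long COL6A3 transcript came first. Among 44 collagen chain genes, COL6A2 and COL6A1 ranked 3 and 4 and COL6A3 ranked 6 by FPKM in both groups. Only the type I chains COL1A1 (2077 FPKM) and COL1A2 (1676 FPKM) were higher in DOX– cells, and the basement membrane chain COL4A2 (338.1 to 354.5 FPKM over DOX– libraries) lay between COL6A1 and COL6A3. COL4A1 followed COL6A3, at 279 FPKM.

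The ratios between the chains were taken within each library, where scaling between libraries has no part. The COL6A2 count divided by the COL6A1 count was 0.953, 0.923 and 0.944 in DOX– replicates 1 to 3 and 1.012, 1.021 and 1.028 in DOX+ replicates 1 to 3. All DOX+ ratios were above all DOX– ratios. The share of all features so separated relative to COL6A1, which itself separated the groups in CPM, was not taken. The ratio was 8.57% higher in DOX+ cells, a log2 change of 0.12 (standard error 0.0232, 95% interval 0.07 to 0.17, adjusted p = 0.00364 in edgeR with the COL6A1 count as offset, exact permutation p = 0.1). Of all features, 44.5% were called against COL6A1 in that fit, since the reference gene itself was called lower. COL6A1 changed by −0.21, beside a median of −0.0019 over all features, so a gene without change is also higher relative to COL6A1. A rise in this ratio is thus not particular to COL6A2. Per length, the ratio was 1.17 in DOX– and 1.27 in DOX+ FPKM. The call was kept when any library was left out (edgeR adjusted p of 0.0151 or lower) and with the GC trend removed (0.13, edgeR adjusted p = 2.87e-04).

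The COL6A3 count divided by the COL6A1 count was 1.546, 1.515 and 1.488 in DOX– replicates 1 to 3 and 1.600, 1.648 and 1.600 in DOX+ replicates 1 to 3. These ranges did not overlap either, and the share of all features so separated was not taken. As above, 44.5% of all features were called in the fit with the COL6A1 count as offset, and a gene without change is also higher relative to COL6A1. The ratio was 6.59% higher in DOX+ cells, a log2 change of 0.09 (standard error 0.0223, 95% interval 0.04 to 0.14, edgeR adjusted p = 0.00812). It was 0.04 with the GC trend removed (edgeR adjusted p = 0.0455) and lost its call with the trend on transcript length removed (0.06, edgeR adjusted p = 0.0511) or as a ratio of FPKM (0.08, limma adjusted p = 0.0772).

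The COL6A3 to COL6A2 ratio was 1.623, 1.642 and 1.575 in DOX– replicates 1 to 3 and 1.582, 1.614 and 1.556 in DOX+ replicates 1 to 3, and the groups overlapped. The log2 change was −0.03 (95% interval −0.08 to 0.03, edgeR adjusted p = 0.554, exact permutation p = 0.3), and 0.558% of features were called in the fit with the COL6A2 count as offset. With the GC trend removed it was −0.09 (edgeR adjusted p = 0.0013). The COL6A2 to COL6A1 ratio kept its call under each alternative run, while both ratios with COL6A3 depended on the treatment of GC content or length. As shares of the summed FPKM of the 3 chains, COL6A1 took 35.98% ± 0.310 in DOX– and 34.29% ± 0.197 in DOX+, COL6A2 42.01% ± 0.431 and 43.48% ± 0.215, and COL6A3 22.01% ± 0.353 and 22.24% ± 0.256 (SD, n = 3 each).

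**Figure D2:**
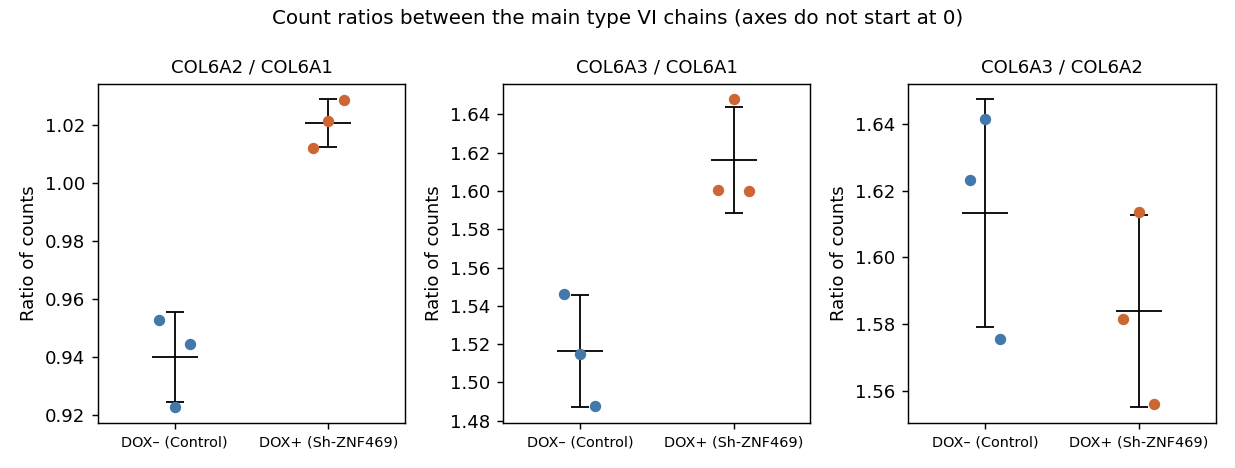
Ratio of the counts of each pair of main chains in each library (points), with the group mean and SD. Both ratios to COL6A1 are higher in all DOX+ libraries than in all DOX– libraries, and the COL6A3 to COL6A2 ratios of the groups overlap.

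The fibrillar collagens, which form the tensile fibrils of the interstitium, were compared with type VI collagen in the same libraries. Of the 10 fibrillar chain genes tested, edgeR called 4 lower and 0 higher, beside 0.715% and 0.4% of all features. By sign alone, 7 were lower and 3 higher. The median log2 fold change was −0.19, beside −0.0019 over all features. The summed counts of COL1A1, COL1A2, COL3A1, COL5A1 and COL5A2 were set against those of the 3 main type VI chains, without correction for length. They were 3.33, 3.28 and 3.24 times as high in DOX– replicates 1 to 3. In DOX+ replicates 1 to 3 they were 2.42, 2.41 and 2.40 times as high, with no overlap. The share of all features so separated relative to type VI was not taken. COL1A1 and COL1A2 made up most of the fibrillar sum. Relative to the summed type VI count, the main type I chain gene COL1A1 fell by 0.55 on the log2 scale (standard error 0.0127, edgeR adjusted p = 3.9e-10), from a ratio of 1.81 ± 0.0244 to 1.23 ± 0.0101 (SD, n = 3 each). Its partner COL1A2 fell by 0.37 relative to type VI (edgeR adjusted p = 1.7e-07), COL3A1 of type III collagen by 0.36 (7.94e-05) and COL5A2 of type V collagen by 0.20 (0.006). In this fit 19.6% of all features were called. The summed type VI count itself changed by −0.14 on the log2 scale, so a gene without change is higher relative to it. COL5A1, whose own log2 fold change was −0.05 (edgeR adjusted p = 0.453), was 0.09 higher relative to type VI (edgeR adjusted p = 0.0495), a call that was lost when any library was left out (edgeR adjusted p from 0.0845 to 0.133). The COL5A2 difference was lost as a ratio of FPKM (−0.14, limma adjusted p = 0.227), and the other 3 lower calls held under each alternative run.

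Type VI microfilaments bind other matrix proteins, and of 14 such partners listed 12 were tested. In edgeR 2 were called lower and 1 higher (median log2 fold change −0.02), beside 0.715% and 0.4% of all features. By sign alone, 7 were lower and 5 higher. Decorin (DCN), a small proteoglycan that binds type VI collagen and fibrils, fell from 1639.5 ± 62.3 to 1443 ± 15.1 CPM (SD, n = 3 each), a log2 fold change of −0.18 (edgeR adjusted p = 0.00557), and its call was lost without DOX– replicate 1 (edgeR adjusted p = 0.0529). The basement membrane chain COL4A1 fell by 0.13 on the log2 scale (edgeR adjusted p = 0.00643), with the call lost without DOX– replicate 1 (0.0855) or DOX+ replicate 1 (0.0641). TGFBI, a secreted protein that binds type VI collagen and integrins, rose from 1989.8 ± 26.9 to 2256 ± 31.5 CPM (SD, n = 3 each), a log2 fold change of 0.18 (edgeR adjusted p = 8.37e-04), and kept its call when any library was left out. Biglycan (BGN) at 0.01 and fibronectin (FN1) at 0.06 (edgeR adjusted p = 0.938 and 0.0775), chosen for their roles after their values were seen, did not pass. FN1 was called higher without DOX+ replicate 2 (0.08, edgeR adjusted p = 0.00615), and also with library size scaling (0.00597) or the GC trend removed (4.88e-04).

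Of 11 receptor genes, all tested, edgeR called 1 lower and none higher (median −0.02), beside 0.715% and 0.4% of all features. An unadjusted edgeR p under 0.05 was found for 4 of them, beside 1076 lower and 1023 higher of the 13991 features tested. By sign alone, 7 were lower and 4 higher. ITGA2, which encodes the collagen-binding integrin α2 chain, fell from 148 ± 0.487 to 118 ± 6.81 CPM (SD, n = 3 each), a log2 fold change of −0.33 (edgeR adjusted p = 0.00269), and kept its call when any library was left out but not on log2(FPKM + 0.1) (−0.31, limma adjusted p = 0.107). The type VI receptor CSPG4, also called NG2, was at −0.19 (edgeR adjusted p = 0.0734) and was called by DESeq2 and by edgeR without the filter on low counts (0.0278), and the anthrax toxin receptors ANTXR1 and ANTXR2, which bind type VI collagen or its fragments, were at 0.08 and −0.06 (edgeR adjusted p = 0.387 and 0.527). These 3 were also chosen for their roles after their values were seen.

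Of 18 genes for chain folding and modification, edgeR called 1 lower and 1 higher (median 0.03), beside 0.715% and 0.4% of all features. By sign alone, 13 were higher and 5 lower. An unadjusted p under 0.05 was found for 5 genes, and DESeq2 called 4, with SERPINH1 lower and PLOD2, P4HA1 and P3H2 higher. Among the 13991 features tested, 1076 lower and 1023 higher ones had such a p, and DESeq2 called 265 lower and 266 higher. SERPINH1, the collagen chaperone HSP47, fell by 0.18 on the log2 scale (edgeR adjusted p = 0.00629), with the call lost without DOX+ replicate 1 (0.0582). PLOD2, a lysyl hydroxylase, rose by 0.25 (edgeR adjusted p = 0.0325), but lost its call when DOX– replicate 1 (0.143) or 3 (0.164) or DOX+ replicate 1 (0.134) or 2 (0.0863) was left out. Of 6 genes for extracellular processing none passed edgeR's test (median 0.05), 2 had an unadjusted p under 0.05, and DESeq2 called 1 (FURIN). Those with the largest changes were the metalloproteinase MMP11 at 0.18 (edgeR adjusted p = 0.604) and the proprotein convertase FURIN at 0.17 (0.116). MMP11 was low, at 5.14 CPM in DOX– cells (standard error of its change 0.143), and FURIN was at 161 CPM. On log2(FPKM + 0.1), limma did not call DCN (adjusted p = 0.519), COL4A1 (0.277), SERPINH1 (0.135), PLOD2 (0.135) or the fibrillar chain COL5A2 (0.199), while TGFBI kept its call (0.0292).

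**Figure D3:**
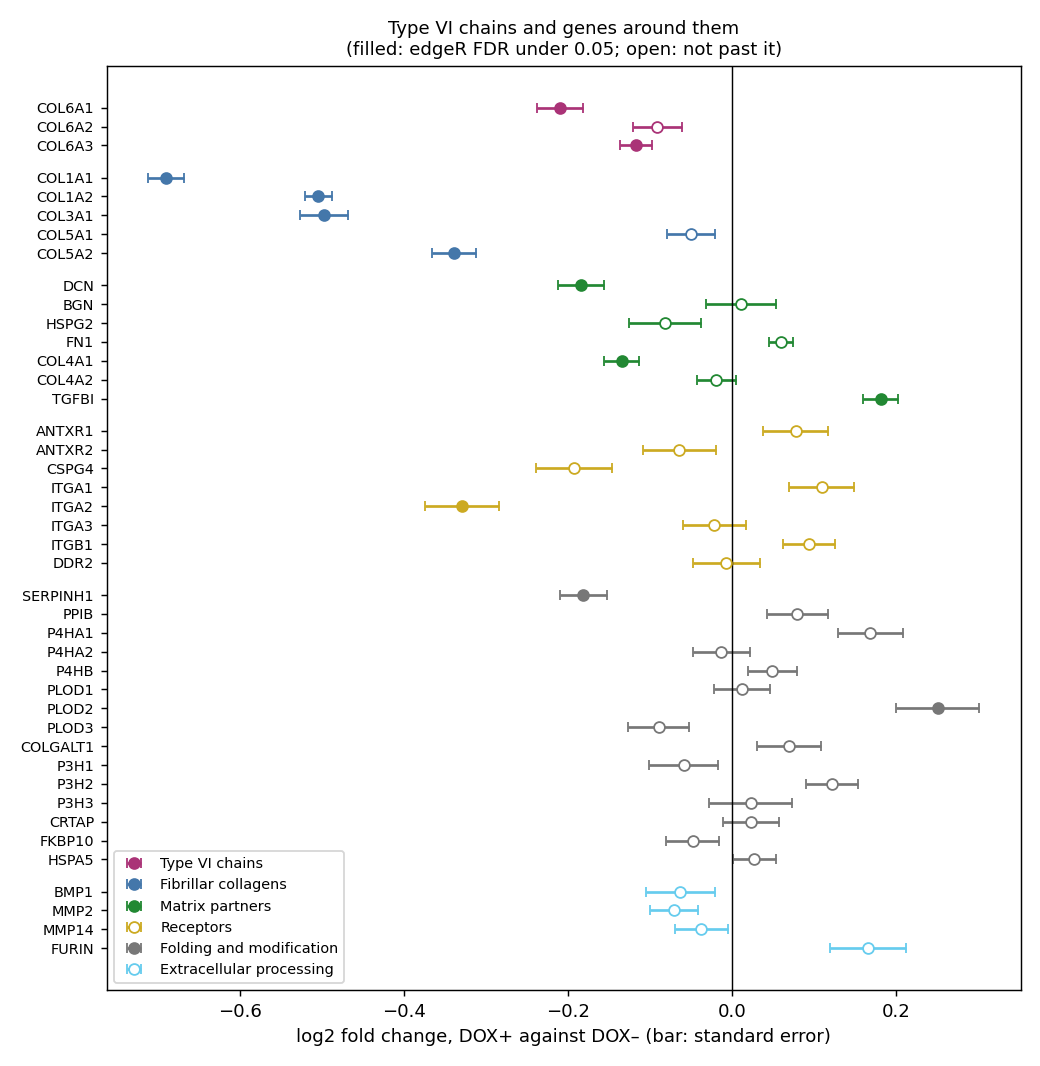
Log2 fold change of DOX+ against DOX– (x axis, bar: standard error) for the 42 genes of the lists with a mean of at least 100 CPM in DOX– cells, filled where the edgeR adjusted p was under 0.05. The type VI chains lie between −0.21 and −0.09, while COL1A1 lies at −0.69.

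The genes whose profile over the 6 libraries was most like that of each chain, by the root-mean-square difference of centred log2 CPM among 5573 abundant genes, were PHPT1 (0.00594), KIF20A (0.0133) and HSPBP1 (0.0182) for COL6A1. For COL6A2 they were FKBP8 (0.00659), HDGF (0.00853) and MYADM (0.00913), and for COL6A3 they were RANGAP1 (0.00853), RASSF1 (0.0112) and SLC25A5 (0.0116). The same measure between the chains was 0.0613 between COL6A1 and COL6A2, 0.0508 between COL6A1 and COL6A3 and 0.0269 between COL6A2 and COL6A3. The named genes were picked as the smallest differences among 5573 genes, whereas the chain pairs were fixed beforehand. Smaller values for the named genes therefore follow from the selection, and the rank of the chain pairs was not taken.

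**Figure D4:**
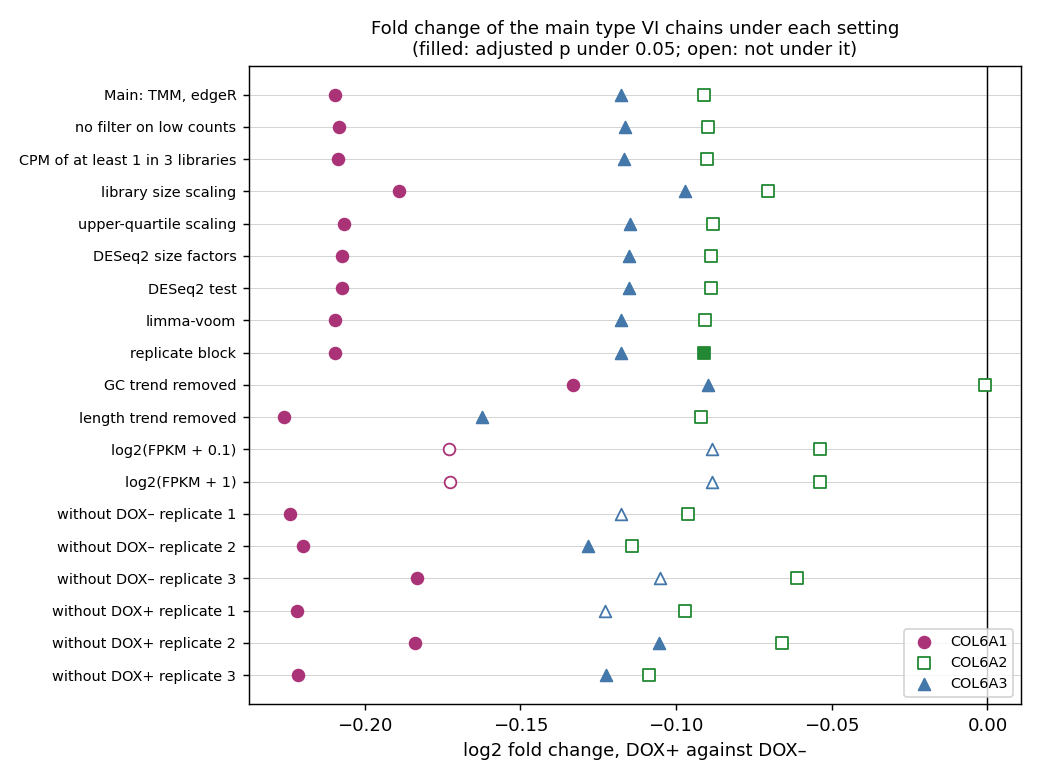
Log2 fold change of COL6A1, COL6A2 and COL6A3 (x axis) under each processing alternative (rows), with filled points where the adjusted p was under 0.05. The values for COL6A1 range from −0.23 to −0.13, those for COL6A2 from −0.11 to −0.00062 and those for COL6A3 from −0.16 to −0.09, and COL6A2 is filled only with the replicate number as a block.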

How the data were processed

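The authors filtered reads on quality. The submitters' processing notes name GRCh38, HISAT2 and StringTie, whose versions, like the counting step and the annotation release, are not given in the sources used here. The authors deposited a whole-number count without normalization and an FPKM value for each gene in each library. The table holds 19974 Ensembl identifiers and 3780 other loci, and 17 stray lines were dropped. Coordinates, transcript length and GC content came from GENCODE 44, which may not be the authors' release.

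The test was the quasi-likelihood test of edgeR 4.0.16 (R 4.3.3) without covariates, after TMM scaling and filterByExpr at a minimum count of 10. Ratios were tested in the same way with the count of the other chain, or of the 3 chains together, as offset. The size of the count table, 34057675 to 36120260 per library, makes counting error small for the abundant chains. Alternatives were other filters and scalings, DESeq2 1.42.0, limma-voom (limma 3.58.1), limma on log2(FPKM + 0.1) and log2(FPKM + 1), the replicate number as a block, lowess trends (span 0.3) on GC content or length, which were known for 12771 of the 13991 features, and leaving out each library. The scripts were tested on simulated data.

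Named genes are ZNF469, the members, members of each list other than the cell type markers past an adjusted p of 0.05 (or the 2 largest changes where none passed) and the 3 nearest profiles of each chain among genes with a mean log2 CPM of at least 5. BGN, FN1, CSPG4, ANTXR1 and ANTXR2 were added for their roles after their values were seen. A few markers, other collagen chains, genes called by DESeq2 and genes at 0 are named beside the counts they belong to. The members and lists were chosen with earlier results of these data known. COL6A1 and COL6A5 have no entry in the promoter table.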

Additional observations from a re-analysis of the deposited data

How the results depend on the processing

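The drop of COL6A1 and COL6A3 kept its direction under each alternative run, and so did the 3 ratios. With log2(FPKM + 0.1) and log2(FPKM + 1) in limma, COL6A1 (−0.17 in both) and COL6A3 (−0.0886 and −0.0883) lost their calls, leaving 0 type VI chains called lower, and 24 features were called lower and 6 higher in both, of which 3 lower and 1 higher were genes of the other 8 lists. The edgeR counts of 100 lower and 56 higher features became 4 and 2 where an absolute log2 change over 1 was also required (0 type VI chains and 0 genes of the other lists), 163 and 127 without the filter on low counts, 265 and 266 with DESeq2, 163 and 127 with the GC trend removed, and 77 and 88 with library size scaling, which turned the balance of lower and higher calls. The 2 higher calls among the other lists became 5 with library size scaling, 5 with DESeq2 and 8 with the GC trend removed. The COL6A3 to COL6A1 ratio lost its call as a ratio of FPKM (0.0844) and with the length trend removed (0.0632), and the COL6A3 to COL6A2 ratio gained one with the GC trend removed (−0.0891). The GC and length trends in the ratios were chosen after seeing the data. The causes were not tested. Leaving out 1 library gave 54 to 92 features lower and 20 to 69 higher, 1 to 2 type VI chains lower, 6 to 8 genes of the other lists lower and 1 to 2 higher. The log2 fold change then ranged from −0.22 to −0.18 for COL6A1, from −0.11 to −0.06 for COL6A2 and from −0.13 to −0.11 for COL6A3.

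Over all features tested, weighted alike, replicate numbers showed no pairing of the libraries. Pairing among the abundant genes alone, or among the type VI chains, was not tested. In CPM, replicate 2 was the lowest library of both groups for COL6A2 and COL6A3, and of DOX+ only for COL6A1. The deviations of same-numbered libraries from their group means correlated at −0.0241, −0.0352 and 0.0363, and 2 of 6 libraries correlated best with their own number. With the replicate block, edgeR called 157 features lower and 135 higher, 5 genes of the other lists higher, and COL6A2 (−0.0909, adjusted p = 0.0219) and CSPG4 (0.0145) lower. FN1 was among the higher calls (0.00334). COL6A5 gave no value under any setting, and COL6A6 entered the edgeR test only without the filter on low counts (adjusted p = 0.726), where its fold change rests on 2 counts and is not given.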

Other observations

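Of 7 other collagens with von Willebrand factor A domains, 3 had enough counts to be tested and 0 passed in edgeR (median log2 fold change −0.06). An unadjusted p under 0.05 was found for 2, and DESeq2 called 1 (COL7A1), beside 265 lower and 266 higher among all features. The largest changes were those of COL14A1, which associates with fibrils, at 0.25 (edgeR adjusted p = 0.499), and of COL7A1, the anchoring fibril chain, at −0.22 (edgeR adjusted p = 0.0774). COL14A1 was low, at 3.09 CPM in DOX– cells (standard error of its change 0.165), and COL7A1 was at 40.8 CPM. The abundant COL12A1, at 1643 CPM, changed by −0.06 (edgeR adjusted p = 0.272). COL20A1, COL21A1 and COL22A1 had 0 counts in all 6 libraries.

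Of 10 genes near COL6A1 and COL6A2 on chromosome 21, 9 were tested (median −0.05). Of these, 0 passed in edgeR, DESeq2 or limma-voom or had an unadjusted edgeR p under 0.05. The largest changes were at PCBP3 (−0.33, edgeR adjusted p = 0.535) and SPATC1L (−0.13, edgeR adjusted p = 0.551). PCBP3 was low, at 2.57 CPM in DOX– cells (standard error of its change 0.234), and SPATC1L was at 12.3 CPM. Of 6 genes near COL6A3, 3 were tested and 0 passed by the same measures (median 0.02), with the largest changes at COPS8 (0.06, edgeR adjusted p = 0.519) and LRRFIP1 (−0.03, edgeR adjusted p = 0.803). Over all features tested, 1076 lower and 1023 higher ones had an unadjusted edgeR p under 0.05.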
